A study of Macaca mulatta with 9 samples.

Results

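The enzymes described here are cytochrome P450s and the other enzyme families that oxidise, reduce or conjugate steroids, fatty acids, retinoids and drugs. They were chosen by symbol: every probe set of the array whose annotation gave a single gene symbol starting with CYP, HSD, AKR, UGT, SULT or ALDH and a digit, or with SRD5A. CYP17A1, CYP19A1, HSD3B2, HSD17B1 and HSD17B8 were left out. This gave 121 probe sets for 70 genes, of 24969 probe sets for 14133 genes with 1 symbol and 52865 probe sets in all. A probe set is a group of short oligonucleotides on the array that together report 1 transcript, and 19 of the 35 genes tested had more than 1 tested probe set.

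The samples were small antral follicles, ovarian follicles with a fluid-filled antrum, of young adult female rhesus macaques in the early follicular phase, collected at or near menses. Controls ate a standard diet. A second group ate a Western-style diet, abbreviated WSD, and the last group ate that diet and had chronically elevated androgen, called Chronic T in the sample titles and WSD+T here, with 3 arrays per group. No group had testosterone on the standard diet, so an effect of testosterone can be read only within the diet. Each array held the whole cellular content of follicles pooled by female and ovary, 3.7 ± 0.3 per ovary, so that wall, granulosa and cumulus cells and the oocyte are measured together, and the 3 samples per group are 3 ovaries. In such samples fewer cells of a type and less RNA per cell cannot be told apart. The sample titles do not name the female behind each array, so whether ovaries of a group share a female was not checked.

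Cytochrome P450s are haem enzymes that insert oxygen into their substrates with electrons from POR in the endoplasmic reticulum or from FDX1 in mitochondria. Hydroxysteroid dehydrogenases (HSD) and some aldo-keto reductases (AKR) switch steroids between active and inactive forms, and UDP-glucuronosyltransferases (UGT) and sulfotransferases (SULT) add a sugar acid or a sulfate that makes them soluble. Aldehyde dehydrogenases (ALDH) oxidise aldehydes, among them retinal, the precursor of retinoic acid. In the follicle the androgens and oestrogens made by theca and granulosa cells are substrates of many of these enzymes.

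Values are MAS5 signals, with the same trimmed mean on every array, and testing was limited to probe sets whose mean log2(signal + 16) reached the median of all probe sets, a signal of about 21.2. Of the members, 59 probe sets for 35 genes passed this filter and 62 did not, so that 35 genes had no tested probe set. Fold changes are on the log2(signal + 16) scale, which understates the change of low signals. Each group is summarised by its mean ± SD (n = 3 arrays). The adjusted p comes from limma and covers all 26383 tested probe sets. The fit shares 1 spread per probe set among the 3 groups. Each p value thus also reflects the spread of the group outside the comparison. The 3 comparisons use the same 3 groups, so each pair of them shares arrays and they are not independent. The WSD arrays varied most among themselves over all tested probe sets (mean within-group variance 0.330, against 0.152 in control and 0.0411 in WSD+T). WSD+T replicates 1 and 3 had a correlation of 0.993, the highest of the 9 pairs within a group, whose lowest was 0.862 for WSD replicates 2 and 3.

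Markers of other cells differed among these arrays and touch the results given next. The summed signal of 13 macrophage and myeloid marker genes, 12 of them tested, ran from 1995 to 10219 in control and 16085 to 18043 in WSD+T. It was 16944, 24425 and 967 on WSD replicates 1 to 3, so that WSD replicate 3 was below every control array and the other two WSD arrays above all of them. The sum of 8 granulosa genes was 13100.0 to 17325 in control, 7539 to 12564 in WSD and 9604 to 10976 in WSD+T, with the WSD and WSD+T arrays all below the control arrays. Of these 8, INHA and INHBB fell and INHBA rose in WSD, and INHA and INHBB fell in WSD+T vs control. That of 5 theca genes overlapped between all groups (3227 to 4455, 2990.3 to 4776 and 3173 to 3408), but CYP17A1 and PTCH1 among them fell in WSD and PTCH1 fell in WSD+T vs control. The medians of the 5 theca genes were log2 fold changes of -0.53 and -0.57 in these comparisons. Sums for 8 endothelial genes were 1093 to 1713, 523 to 3852 and 2052 to 2367, for 8 stromal genes 8628 to 10006, 7807 to 10998 and 10149 to 11882, and for 8 oocyte genes 592 to 1207, 1061 to 1683 and 1458 to 1702, each in the order control, WSD and WSD+T. The 7 surface epithelium genes gave 1269 to 1946, 2598 to 3569 and 1946 to 2071, and 3 T and NK cell genes 39.9 to 231, 58.2 to 409 and 359.6 to 514. Among the stromal genes TAGLN rose and LUM fell in WSD on representative probe sets, and DCN fell on another probe set. LUM also rose in WSD+T vs WSD. Among the oocyte genes ZP4 rose in WSD and FIGLA rose in WSD+T vs control. No signal of the 60 marker genes was 0 on any array. Of the 59 tested member probe sets, 28 (47.5%) were highest on WSD replicate 2 and lowest on WSD replicate 3 among the WSD arrays, as were 27.7% of all tested probe sets. The part of these cell markers in the results was not tested. Where a marker value is given beside a result, it only describes the same arrays.

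WSD against control shows these enzymes under the diet alone. The oestrogen-hydroxylating CYP1B1, the drug- and steroid-oxidising CYP3A5 and the glucuronosyltransferase UGT2B33 rose, and CYP2U1, ALDH6A1, ALDH1B1, CYP2J2, CYP2A24 and CYP4F11 fell. CYP1B1 rose from 938 ± 131 to 2266 ± 456 and CYP3A5 from 30.9 ± 27.3 to 247 ± 166, and CYP2U1, a P450 of long-chain fatty acids, fell from 959 ± 70.7 to 462 ± 8.53. These 9 genes stood for 14 of the 59 tested member probe sets (6 higher, 8 lower), or 23.7%, and 26 genes had no probe set past the threshold. Of all tested probe sets 14.5% were called, 4.78% higher and 9.68% lower. Median fold changes were -0.02 for the members and -0.08 for all tested probe sets. The groups did not overlap for 19 of the 59 (32.2%), against 30.8% of all tested probe sets.

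The scaling between arrays moved the split of these calls: quantile normalization and cyclic loess each gave 6 higher and 5 lower, and median centring 6 higher and 4 lower, with the median of all tested probe sets moved from -0.08 to 0.05. The count of 14 moved with single arrays: it was 7 without control replicate 2, 8 without control replicate 3 and 8 without WSD replicate 1. For alternatives, here and in the other comparisons, the share of all tested probe sets called is not given. Such counts thus do not show whether members moved more than other probe sets.

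WSD+T against control joins diet and testosterone. CYP3A5 rose, from 30.9 ± 27.3 to 237 ± 38.2, and was the sole member gene past the threshold, through 2 probe sets. No member probe set was called lower in limma, where 6 higher and 9 lower had an unadjusted p under 0.05. The 2 calls are 3.39% of the 59 members, and 1.97% of all tested probe sets were called (0.542% higher, 1.43% lower). Median fold changes were -0.01 for the members and -0.01 for all tested probe sets. For 24 members (40.7%) the groups did not overlap, against 36.8% of all tested probe sets. Quantile normalization and cyclic loess each gave 2 higher and 1 lower. No member was called without control replicate 2 or 3, without WSD replicate 1, or without WSD+T replicate 1, 2 or 3 (0 in each limma fit, with 13, 10, 13, 11, 13 and 11 at an unadjusted p under 0.05), 1 was called without control replicate 1, and 8 and 5 were called without WSD replicates 2 and 3.

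WSD+T against WSD shows testosterone within the diet. CYP1B1 fell on all 3 of its probe sets, from 2266 ± 456 to 1246 ± 48.2 on the representative one, and CYP2A24 rose from 11.6 ± 3.53 to 34.97 ± 6.77. These 4 calls (1 higher, 3 lower) are 6.78% of the 59 members, beside 2.99% of all tested probe sets (2.04% higher, 0.948% lower). Median fold changes were 0.06 for the members and 0.09 for all, and 13 members (22.0%) had groups that did not overlap, against 28.5% of all tested probe sets. Quantile normalization gave 1 higher and 1 lower, median centring 2 lower and cyclic loess 1 lower, and median centring moved the median of all tested probe sets from 0.09 to -0.05. The count was 1 without control replicate 1 and 1 without control replicate 2, 7 without WSD replicate 2, and 0 without WSD replicate 1 or WSD+T replicate 1, 2 or 3 (with 9, 12, 9 and 11 members at an unadjusted p under 0.05 in limma).

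**Figure D1:**
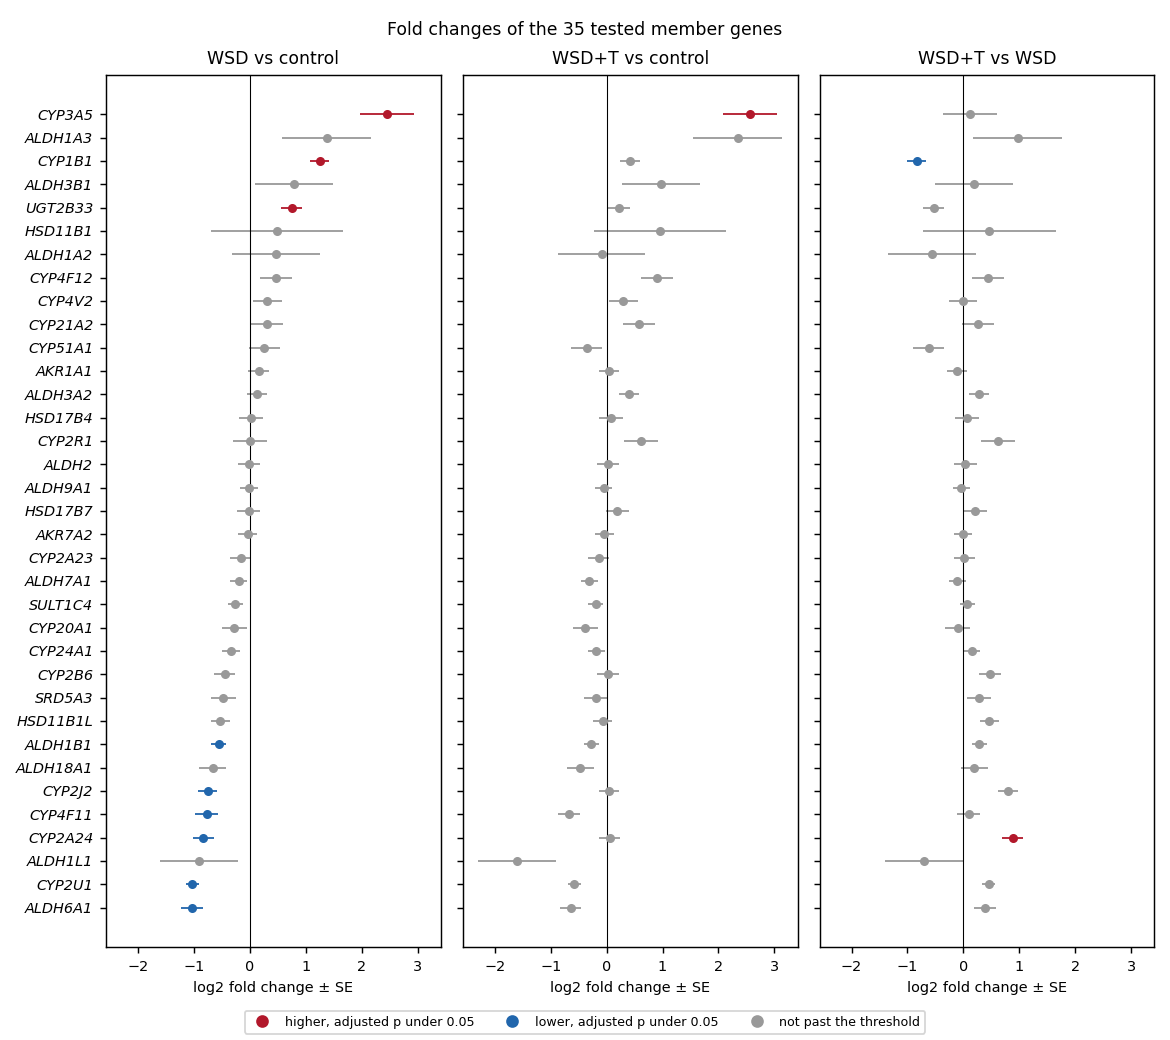
Log2 fold changes ± SE (horizontal axes) of the 35 tested member genes (vertical axis), each shown by its brightest tested probe set, in the 3 comparisons of 3 against 3 arrays. Red and blue points passed limma's adjusted p threshold of 0.05 as higher or lower: 9 genes in WSD vs control, 1 in WSD+T vs control and 2 in WSD+T vs WSD.

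Among the P450s of drugs and oestrogens, 5 of 11 genes were tested. CYP1B1 makes catechol oestrogens and is a classic target of the aryl hydrocarbon receptor. The first of its 3 probe sets, MmugDNA.36286.1.S1_at, gave 926, 1075 and 813 on the control arrays, 2133, 2775 and 1891 on the WSD arrays and 1199, 1295 and 1245 on the WSD+T arrays. Every WSD array was above every array of the other groups, and the WSD+T arrays lay just above the control arrays. The second gave 731, 843 and 439 on the control arrays, 1558, 2269 and 1517 on the WSD arrays and 676, 634 and 845 on the WSD+T arrays, and the third 503, 455 and 314 on the control arrays, 1277, 1992 and 1112 on the WSD arrays and 326, 349 and 411 on the WSD+T arrays. On both of these the WSD arrays were again above all others, while WSD+T and control overlapped. WSD exceeded control on all 3 (log2 fold change 1.25, SE 0.18, adjusted p = 0.00539 on the first, 1.41 and 1.73 on the others, adjusted p = 0.0124 and 0.00595) and in every fit that left out 1 array. WSD replicate 3, with the lowest myeloid marker sum, had CYP1B1 signals of 1891, 1517 and 1112, above all control arrays on each probe set and the lowest of the WSD arrays. The sum of the 7 surface epithelium and mesothelium markers had the same group pattern as CYP1B1, with 2829.9, 2598 and 3569 on the WSD arrays, above every control array (1269 to 1946) and WSD+T array (1946 to 2071), and it was highest on WSD replicate 3. On their representative probe sets KRT8 rose and LHX9 fell in WSD among these markers. Their part in the CYP1B1 result was not tested.

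Under added testosterone CYP1B1 was lower than under the diet alone (log2 fold change -1.93, SE 0.25, adjusted p = 0.0181 on the third probe set, -0.84 and -1.28 on the first and second, adjusted p = 0.0460 and 0.0452). WSD+T did not differ from control past the threshold (log2 fold changes 0.41, 0.14 and -0.20, adjusted p = 0.249, 0.829 and 0.718), with 95% intervals of 0.01 to 0.81, -0.47 to 0.74 and -0.77 to 0.37. The difference between WSD+T and WSD was near the threshold. The third probe set missed it without WSD replicate 1, WSD+T replicate 1, WSD+T replicate 2 and WSD+T replicate 3 (adjusted p = 0.0563, 0.122, 0.106 and 0.0777, respectively), within a range over all alternatives of 0.0120 to 0.122. The first missed it without control replicate 1, control replicate 2, control replicate 3, WSD replicate 1, WSD+T replicate 1, WSD+T replicate 2 and WSD+T replicate 3 (adjusted p = 0.0723, 0.0565, 0.0572, 0.103, 0.181, 0.164 and 0.145, respectively), over a range of 0.0277 to 0.181. The second missed it without control replicate 1, control replicate 2, WSD replicate 1, WSD replicate 2, WSD+T replicate 1, WSD+T replicate 2 and WSD+T replicate 3 (adjusted p = 0.0672, 0.0513, 0.0948, 0.0555, 0.175, 0.179 and 0.117, respectively), over a range of 0.0323 to 0.179.

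CYP3A5 oxidises many drugs and hydroxylates testosterone. Its first probe set, MmugDNA.36201.1.S1_at, gave 62.4, 14.1 and 16.04 on the control arrays, 184, 436 and 121 on the WSD arrays and 265, 194 and 253 on the WSD+T arrays. The second, MmugDNA.40591.1.S1_s_at, gave 45.0, 15.8 and 19.0 on the control arrays, 172, 382 and 112 on the WSD arrays and 231, 131 and 197 on the WSD+T arrays. On both, all WSD and WSD+T arrays exceeded all control arrays, the WSD and WSD+T arrays overlapped, and control replicate 1 was the highest control. CYP3A5 was higher in WSD (log2 fold change 2.45, SE 0.48, adjusted p = 0.0142 on the first, 2.38, adjusted p = 0.0107 on the second) and in WSD+T (log2 fold change 2.57, SE 0.48, adjusted p = 0.0386 on the first, 2.28, adjusted p = 0.0386 on the second). WSD+T against WSD was 0.12 and -0.10 (adjusted p = 0.922 and 0.923, 95% intervals -0.97 to 1.21 and -1.07 to 0.86). The control means of 30.9 and 26.6 lie near the filter's signal.

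In WSD vs control, the first CYP3A5 probe set missed the threshold without control replicate 2 and control replicate 3 (adjusted p = 0.0521 and 0.0510, respectively), within a range over the alternatives of 0.00752 to 0.0619, and the second passed in all of them (0.00551 to 0.0488). In WSD+T vs control the first missed it without control replicate 2, control replicate 3, WSD replicate 1, WSD+T replicate 1, WSD+T replicate 2 and WSD+T replicate 3 (adjusted p = 0.115, 0.125, 0.0589, 0.181, 0.101 and 0.172, respectively), with a range of 0.00525 to 0.181. The second missed it without control replicate 1, control replicate 2, control replicate 3, WSD replicate 1, WSD+T replicate 1, WSD+T replicate 2 and WSD+T replicate 3 (adjusted p = 0.0528, 0.115, 0.123, 0.0590, 0.187, 0.0821 and 0.173, respectively), with a range of 0.00640 to 0.187. Neither passed in WSD+T vs control without the filter on low signals, where more probe sets share the adjustment (adjusted p = 0.0577 and 0.0574). Control replicate 1 also had the highest myeloid marker sum of the control arrays, 10219, and WSD replicate 2 had the highest sum and the highest CYP3A5 of all arrays. WSD replicate 3, with the lowest sum, had CYP3A5 signals of 121 and 112, above every control array. Near-identical CYP3A genes share sequence, and which of them these probe sets report was not checked.

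The untested CYP3A5 probe set ran from 5.46 to 8.47 in control, with 18.7, 19.1 and 13.5 in WSD and 7.08, 6.20 and 9.40 in WSD+T, so that it was above both other groups in WSD, while WSD+T and control overlapped. Tested without the filter, WSD exceeded control (log2 fold change 0.51, SE 0.11, adjusted p = 0.0372). None of the 4 CYP3A4 probe sets or the CYP3A43 probe set passed the filter, with a highest signal of 24.9 on any array. The brightest CYP3A4 probe set gave 17.0, 24.9 and 15.1 in WSD, above all control and WSD+T arrays. It did not pass in WSD vs control without the filter (log2 fold change 0.70, adjusted p = 0.0696). The other CYP3A4 probe sets had changes of 0.14 to 0.23 there (adjusted p = 0.458 to 0.733).

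CYP2A24, a macaque P450 of the CYP2A family, gave 24.7, 44.0 and 31.5 on the control arrays, 12.5, 14.6 and 7.70 on the WSD arrays and 38.5, 27.2 and 39.3 on the WSD+T arrays. The WSD arrays lay below all others and under the filter's signal of 21.2, and control and WSD+T overlapped. CYP2A24 fell in WSD (log2 fold change -0.83, SE 0.19, adjusted p = 0.0239) and was higher in WSD+T than in WSD (log2 fold change 0.88, SE 0.19, adjusted p = 0.0487). Its probe set reached the filter only through the control and WSD+T arrays, so its selection is not independent of their high signal. Without the filter on low signals the fall in WSD passed, but WSD+T vs WSD did not (adjusted p = 0.0587). The fall missed the threshold without control replicate 2, control replicate 3 and WSD replicate 1 (adjusted p = 0.0734, 0.0616 and 0.0542, respectively), over a range of 0.0179 to 0.0954. WSD+T vs WSD passed in 1 of 9 fits that left out an array and missed it without control replicate 1, control replicate 2, control replicate 3, WSD replicate 1, WSD replicate 3, WSD+T replicate 1, WSD+T replicate 2 and WSD+T replicate 3 (adjusted p = 0.0593, 0.0503, 0.0713, 0.111, 0.0628, 0.189, 0.138 and 0.157, respectively), over a range of 0.0421 to 0.189.

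The 2 probe sets of its relative CYP2A23 differed from it and from each other. In WSD vs control they had log2 fold changes of -0.16 and 0.64 (adjusted p = 0.585 and 0.160), with signals of 1142, 1615 and 1743 on the control arrays, 1164, 1396 and 1407 on the WSD arrays and 1457, 1203 and 1359 on the WSD+T arrays on the first. CYP2A genes are close copies, and which of them each probe set reports was not checked. CYP2B6, a drug-metabolising P450, had 3 tested probe sets with changes from -0.45 to -0.21 in WSD and none past the threshold in any comparison.

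**Figure D2:**
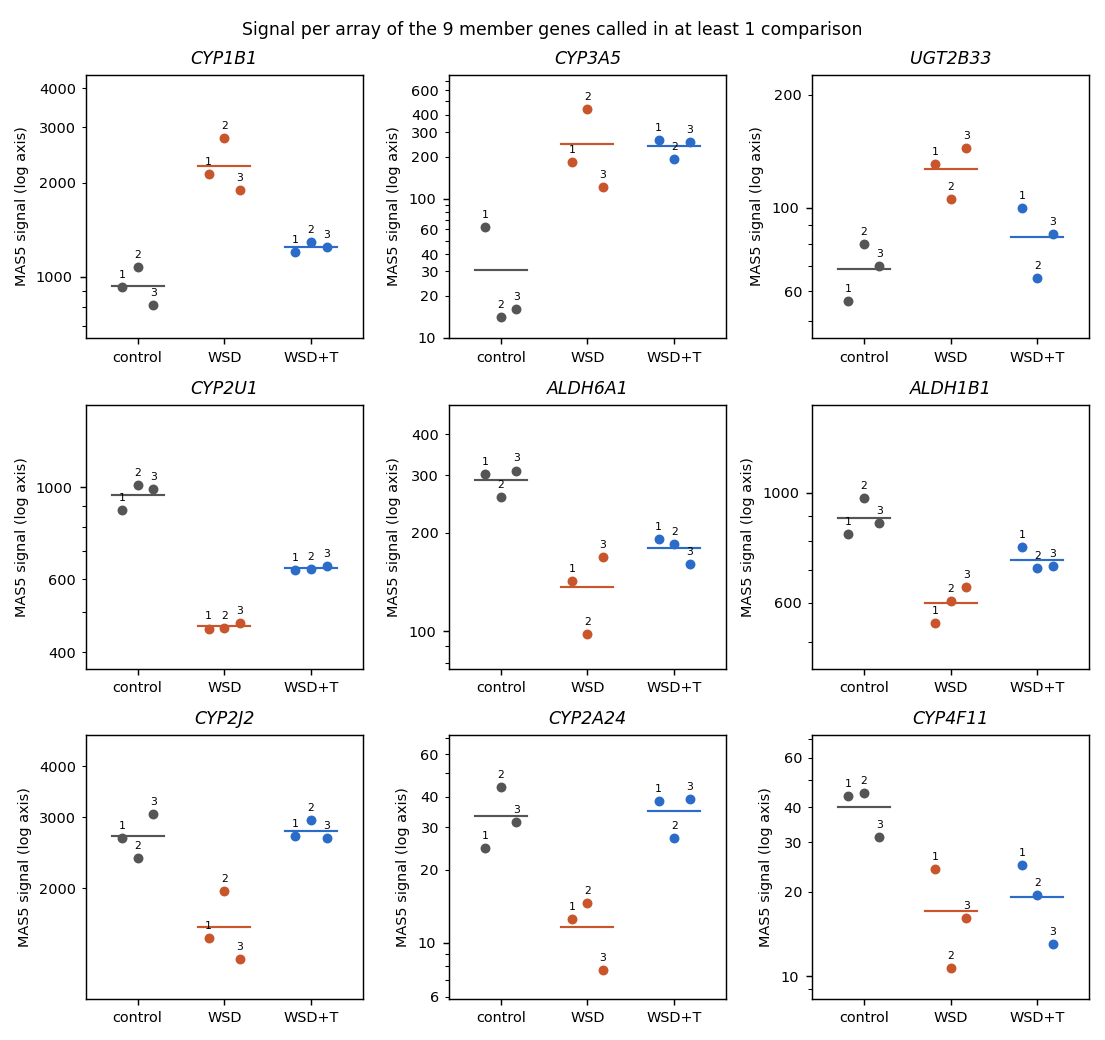
MAS5 signal (vertical axes, log scale) of the 9 member genes past the threshold in at least 1 comparison, by group, on the probe set with the highest mean of each gene. Points are arrays numbered by replicate, and lines are group means of n = 3. CYP1B1 was highest on the WSD arrays, from 1891 to 2775, whereas CYP3A5 was above control in WSD and WSD+T.

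Of the P450s of fatty acids and eicosanoids, 6 of 11 genes were tested, and CYP2U1, CYP2J2 and CYP4F11 fell in WSD while none rose. By probe set 4 of 9 were called, all lower, where over all tested probe sets lower calls (9.68%) also outnumbered higher ones (4.78%). CYP2U1 hydroxylates arachidonic acid and other long-chain fatty acids. Its first probe set, MmugDNA.7221.1.S1_at, gave 878, 1011 and 987 on the control arrays, 456, 457 and 471 on the WSD arrays and 633, 636 and 644 on the WSD+T arrays. The 3 groups did not overlap in any pair: control was highest, WSD lowest and WSD+T between them. CYP2U1 was lower in WSD than in control (log2 fold change -1.03, SE 0.12, adjusted p = 0.00329), a difference that passed under every alternative (0.00182 to 0.0361). WSD+T was lower than control by a fold change of -0.57 that did not pass (adjusted p = 0.0501), and higher than WSD by 0.45 (adjusted p = 0.0765).

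The second CYP2U1 probe set gave 105, 248 and 150.7 on the control arrays, 69.2, 37.6 and 72.7 on the WSD arrays and 141, 184 and 148 on the WSD+T arrays. Here WSD was below all other arrays and control and WSD+T overlapped (log2 fold change -1.24, SE 0.30, adjusted p = 0.0300 in WSD vs control, 1.22, adjusted p = 0.0666 in WSD+T vs WSD). Its fall in WSD missed the threshold without control replicate 2, control replicate 3, WSD replicate 1, WSD replicate 2, WSD+T replicate 1 and WSD+T replicate 3 (adjusted p = 0.0769, 0.0749, 0.0551, 0.0649, 0.0538 and 0.0551, respectively), over a range of 0.0228 to 0.0957.

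CYP2J2, which makes epoxides from arachidonic acid, gave 2657, 2378 and 3059 on the control arrays, 1509, 1973 and 1336 on the WSD arrays and 2699.6, 2950.1 and 2662 on the WSD+T arrays. All WSD arrays were below all others, and control and WSD+T overlapped. It fell in WSD (log2 fold change -0.75, SE 0.18, adjusted p = 0.0250), and WSD+T exceeded WSD by 0.80 with an adjusted p of 0.0504. The fall missed the threshold without control replicate 1, control replicate 3, WSD replicate 1 and WSD+T replicate 1 (adjusted p = 0.0595, 0.0771, 0.0683 and 0.0506, respectively), over a range of 0.0137 to 0.0962. WSD+T differed from control by 0.04 (adjusted p = 0.924, 95% interval -0.36 to 0.44).

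CYP4F11, a fatty acid hydroxylase, gave 43.6, 44.8 and 31.2 on the control arrays, 24.1, 10.7 and 16.2 on the WSD arrays and 24.9, 19.5 and 13.1 on the WSD+T arrays on the called probe set. Control was above both other groups, which overlapped and had means under the filter's signal. It fell in WSD (log2 fold change -0.77, SE 0.20, adjusted p = 0.0384), and WSD+T was -0.67 against control (adjusted p = 0.132). The fall missed the threshold without the filter on low signals (adjusted p = 0.0523). This probe set reached the filter only through its control arrays, so its selection is not independent of the high control signal. The other tested probe set had -0.60 in WSD and -0.89 in WSD+T against control (adjusted p = 0.107 and 0.0841), also without overlap with control. The untested CYP4F11 probe set gave 11.1, 12.8 and 17.0 in control, 9.13, 12.9 and 5.49 in WSD and 18.2, 22.1 and 23.7 in WSD+T. On it WSD+T was above both other groups without overlap, so the CYP4F11 probe sets disagree on the direction in WSD+T. The call in WSD missed the threshold without control replicate 1, control replicate 2, control replicate 3, WSD replicate 2, WSD+T replicate 1, WSD+T replicate 2 and WSD+T replicate 3 (adjusted p = 0.0979, 0.113, 0.0520, 0.0802, 0.0572, 0.0643 and 0.0533, respectively), over a range of 0.0366 to 0.136.

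The other tested members of this group did not pass. CYP4F12 had 39.4, 27.0 and 28.3 in control and 80.8, 60.4 and 78.5 in WSD+T, without overlap (log2 fold change 0.91, adjusted p = 0.142). CYP4V2, a fatty acid hydroxylase of the eye and other tissues, had changes of 0.31 and 0.43 in WSD on 2 probe sets (adjusted p = 0.432 and 0.351). The orphan P450 CYP20A1 had -0.28 in WSD and -0.38 in WSD+T against control (adjusted p = 0.432 and 0.396).

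In the enzymes that make or convert steroid hormones and glucocorticoids, 6 of 12 genes were tested and none passed in any comparison. HSD17B4, a peroxisomal enzyme of fatty acid oxidation that also oxidises oestradiol, gave 1018, 1052 and 973 on the control arrays, 1119, 1354 and 709 on the WSD arrays and 1075, 1096 and 1034 on the WSD+T arrays. The groups overlapped, with log2 fold changes of 0.02 and 0.07 against control (95% intervals -0.48 to 0.51 and -0.42 to 0.57). HSD17B7, which acts in cholesterol synthesis and can reduce oestrone, overlapped between the groups on its 3 tested probe sets, with changes from -0.02 to 0.23 in WSD and from -0.11 to 0.19 in WSD+T against control. SRD5A3, a steroid reductase relative that works in dolichol synthesis, was -0.47 in WSD vs control on its representative probe set (adjusted p = 0.177). CYP21A2, the hydroxylase that leads to corticosteroids, gave 75.5, 32.1 and 34.7 on the control arrays, 40.2, 86.1 and 58.5 on the WSD arrays and 76.1, 80.0 and 67.9 on the WSD+T arrays, with overlap of all groups.

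HSD11B1, which turns inactive cortisone into cortisol, gave 545, 125 and 54.7 on the control arrays, 446, 983 and 17.2 on the WSD arrays and 358, 259 and 377 on the WSD+T arrays. Its lowest and highest arrays were both WSD arrays. The fold changes of 0.49 in WSD and 0.95 in WSD+T against control did not pass (adjusted p = 0.810 and 0.712), and the 95% intervals of -2.20 to 3.17 and -1.74 to 3.64 allow a large change either way. Over the same arrays the myeloid marker sum was 10219, 1995 and 2411 in control and 16944, 24425 and 967 in WSD. It was 18043, 16085 and 17175 in WSD+T. In control and WSD the array with the highest sum had the highest HSD11B1. In WSD and WSD+T the array with the lowest sum had the lowest. In control these were different arrays, replicates 2 and 3. In WSD+T the highest sum was on replicate 1 and the highest HSD11B1 on replicate 3. All WSD+T arrays had a higher sum than control replicate 1 but lower HSD11B1. The part of the markers was not tested. HSD11B1L, a relative of HSD11B1 by name, was 78.7, 64.4 and 103 in control and 48.2, 55.3 and 49.98 in WSD, without overlap (log2 fold change -0.53, adjusted p = 0.0726).

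**Figure D3:**
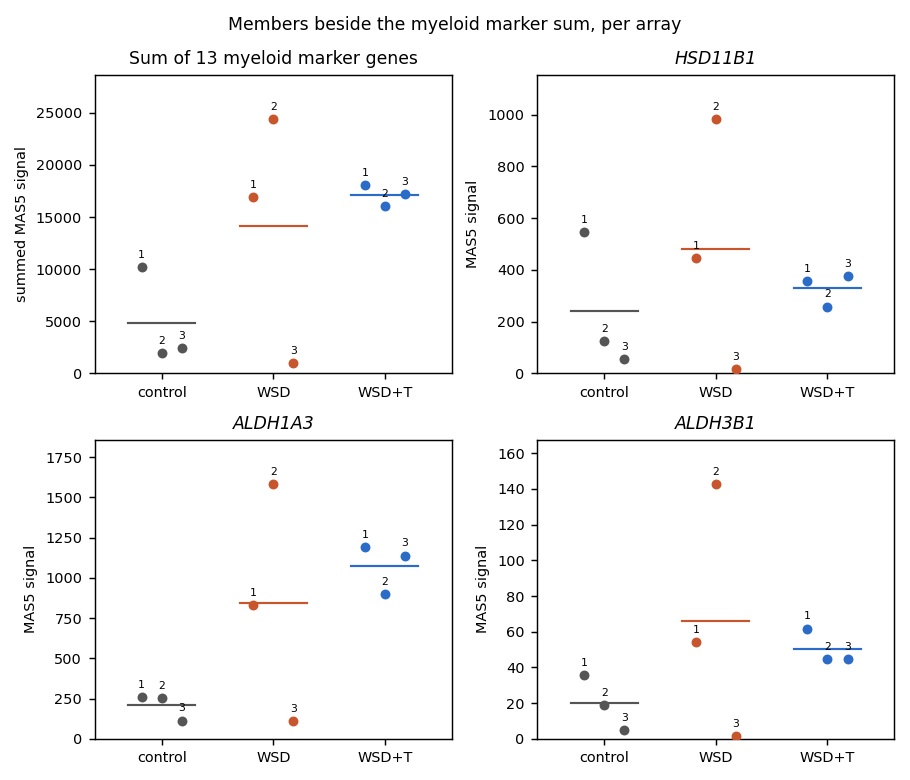
Summed MAS5 signal of 13 macrophage and myeloid marker genes and MAS5 signals of HSD11B1, ALDH1A3 and ALDH3B1 (vertical axes, linear, from 0) per array and group, with replicate numbers and lines for group means of n = 3. In all 4 panels WSD replicate 2 is the highest array, and WSD replicate 3 is the lowest array of the WSD group.

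Enzymes of sterols and vitamin D had 3 tested genes of 6 and no call. CYP51A1, the lanosterol demethylase of cholesterol synthesis, gave 1582, 1836 and 1310.0 on the control arrays, 2059, 1192 and 2688 on the WSD arrays and 1160.2, 1158 and 1339.9 on the WSD+T arrays. The second probe set was lower in WSD+T than in both other groups without overlap (-0.67 and -0.89 against control and WSD, adjusted p = 0.266 and 0.142), and the first overlapped in every comparison. CYP24A1, which inactivates vitamin D, gave 1409, 1479 and 1491 on the control arrays, 1095, 982 and 1433 on the WSD arrays and 1242, 1316 and 1289 on the WSD+T arrays (-0.33 in WSD vs control, adjusted p = 0.186), and the WSD+T arrays lay below control without overlap (-0.18, adjusted p = 0.564). CYP2R1, which hydroxylates vitamin D, had 149, 104 and 154 in WSD+T, above the control arrays at 73.5, 84.7 and 86.8 (0.62, adjusted p = 0.302).

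Among retinoid enzymes 2 of 5 genes were tested, and neither passed. ALDH1A3 oxidises retinal to retinoic acid and gave 261, 255 and 113 on the control arrays, 829.8, 1585 and 109.6 on the WSD arrays and 1192, 897 and 1139 on the WSD+T arrays. All WSD+T arrays were above all control arrays, and WSD replicates 1 and 2 were too, but WSD replicate 3 was below the lowest control. The log2 fold changes of 1.38 in WSD and 2.34 in WSD+T (95% intervals -0.44 to 3.20 and 0.52 to 4.16) had adjusted p values of 0.275 and 0.168. Of the 9 fits that left out an array, only that without WSD replicate 3 passed, in both comparisons (adjusted p = 0.00685 and 0.0155). WSD+T vs control also passed with only the groups compared and with array weights, within a range over all alternatives of 0.0100 to 0.422. The array order within WSD was again that of the myeloid marker sum. ALDH1A2, which catalyses the same step, gave 69.7, 374 and 31.1 on the control arrays, 60.5, 123 and 377 on the WSD arrays and 96.5, 99.9 and 84.4 on the WSD+T arrays, with a high array in control and another in WSD and overlap of all groups (0.47 in WSD vs control, adjusted p = 0.715).

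Genes that handle retinoids but belong to other families were listed by function, 18 in all, of which 14 were on the array and 10 tested. On their representative probe sets 2 rose (CRABP2 and DHRS3) and 2 fell (RARA and RXRB) in WSD, DHRS3 rose in WSD+T vs control, and none passed in WSD+T vs WSD. Over all tested probe sets 4.78% were called higher and 9.68% lower in WSD, and 1.97% were called in WSD+T vs control. CRABP2, which carries retinoic acid to its receptors, gave 27.2, 29.1 and 30.4 on the control arrays, 81.7, 137 and 155 on the WSD arrays and 68.3, 51.1 and 85.3 on the WSD+T arrays (log2 fold change 1.61, SE 0.23, adjusted p = 0.00582). DHRS3, which reduces retinal back to retinol, gave 706, 564 and 499 on the control arrays, 1093, 1326 and 1456 on the WSD arrays and 1043, 1126 and 1068 on the WSD+T arrays. It exceeded control without overlap in WSD (log2 fold change 1.11, SE 0.17, adjusted p = 0.00682) and in WSD+T (log2 fold change 0.87, SE 0.17, adjusted p = 0.0439). The second of these missed the threshold without control replicate 1, control replicate 2, control replicate 3, WSD+T replicate 1, WSD+T replicate 2 and WSD+T replicate 3 (adjusted p = 0.0514, 0.123, 0.125, 0.189, 0.135 and 0.182, respectively), over a range of 0.00782 to 0.189.

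The receptor genes RARA and RXRB had changes of -0.49 and -0.75 in WSD (adjusted p = 0.0337 and 0.0107). RXRB passed in every fit that left out an array, whereas RARA missed the threshold without control replicate 1, control replicate 2, control replicate 3, WSD replicate 1, WSD replicate 2, WSD+T replicate 1, WSD+T replicate 2 and WSD+T replicate 3 (adjusted p = 0.0843, 0.0929, 0.0636, 0.0648, 0.0602, 0.0671, 0.0561 and 0.0687, respectively), over a range of 0.0176 to 0.168. Among the other RARA probe sets 1 was called lower (-0.75) and 1 higher (1.67, adjusted p = 0.0102), so its probe sets disagree and RARA as a gene has no settled direction. The higher one passed under every alternative run (0.00373 to 0.0496). The lower one missed the threshold without control replicate 1, control replicate 2 and control replicate 3 (adjusted p = 0.0549, 0.0582 and 0.0635, respectively), over a range of 0.00892 to 0.0916.

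Conjugating enzymes were mostly below the filter: 1 of 5 UGT genes and 1 of 4 SULT genes were tested. UGT2B33, a macaque glucuronosyltransferase of the subfamily that conjugates steroids, gave 56.5, 80.1 and 70.1 on the control arrays, 131, 105 and 144 on the WSD arrays and 100.03, 65.1 and 85.1 on the WSD+T arrays. The WSD arrays were above all others, with WSD replicate 3 the highest, as for the surface epithelium marker sum, whose part was not tested. Control and WSD+T overlapped. It rose in WSD (log2 fold change 0.75, SE 0.19, adjusted p = 0.0326), and WSD+T was -0.53 against WSD (adjusted p = 0.158). The rise missed the threshold without control replicate 1, control replicate 2, control replicate 3, WSD replicate 1 and WSD+T replicate 3 (adjusted p = 0.0912, 0.0548, 0.0778, 0.0837 and 0.0619, respectively), over a range of 0.02000 to 0.144. The other UGT2B33 probe set stayed at or below 5.00 on all arrays and was not tested, and UGT2B genes are close copies of each other.

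SULT1C4, a sulfotransferase of small phenols, did not pass. Its first probe set gave 976, 1153 and 1167 on the control arrays, 891, 868 and 978 on the WSD arrays and 949, 1010.2 and 911 on the WSD+T arrays (-0.26 in WSD vs control, adjusted p = 0.213). The second was lower in WSD than in both other groups without overlap, at 98.1, 92.0 and 80.3 against 213, 203 and 105 in control and 188, 177 and 179 in WSD+T, with an adjusted p of 0.0567 against control and 0.0758 for WSD+T vs WSD.

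Of 16 listed genes for electron donors, cosubstrates and steroid sulfatase, 14 were on the array and 13 tested. On their representative probe sets none rose and 2 fell in WSD, PAPSS1 and SLC35B3, 1 fell in WSD+T vs control, PAPSS1, and none passed in WSD+T vs WSD. The 2 of 13 in WSD are a share near the 14.5% called over all tested probe sets. PAPSS1 makes the activated sulfate that all sulfotransferases use, and gave 1756, 1304 and 1647 on the control arrays, 760.4, 783 and 864 on the WSD arrays and 850.4, 798 and 943 on the WSD+T arrays. Both treated groups were below control without overlap, in WSD (log2 fold change -0.94, SE 0.15, adjusted p = 0.00806) and in WSD+T (log2 fold change -0.84, SE 0.15, adjusted p = 0.0360). Its second probe set changed by -0.95 and -1.07 (adjusted p = 0.0159 and 0.0356). The first passed in WSD in every fit that left out an array and missed the threshold in WSD+T without control replicate 1, control replicate 3, WSD replicate 1, WSD+T replicate 1, WSD+T replicate 2 and WSD+T replicate 3 (adjusted p = 0.0879, 0.105, 0.0539, 0.181, 0.121 and 0.150, respectively), over a range of 0.00871 to 0.181. The second missed it in WSD without control replicate 3 (adjusted p = 0.0519), over 0.0108 to 0.0776, and in WSD+T without control replicate 1, control replicate 3, WSD replicate 1, WSD+T replicate 1, WSD+T replicate 2 and WSD+T replicate 3 (adjusted p = 0.0836, 0.105, 0.0528, 0.148, 0.114 and 0.154, respectively), over 0.0101 to 0.154.

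SLC35B3, a transporter of activated sulfate, was -0.51 in WSD (adjusted p = 0.0380) and missed the threshold without control replicate 1, control replicate 2, control replicate 3, WSD replicate 1, WSD+T replicate 1, WSD+T replicate 2 and WSD+T replicate 3 (adjusted p = 0.0889, 0.113, 0.0536, 0.101, 0.0738, 0.0573 and 0.0716, respectively), over a range of 0.0216 to 0.164. Some electron donors passed only on another probe set than the representative one. The second FDX1 probe set gave 581, 493 and 552 on the control arrays, 1436, 1047 and 1292 on the WSD arrays and 674, 667 and 765 on the WSD+T arrays and was higher in WSD (log2 fold change 1.18, SE 0.16, adjusted p = 0.00434), while the representative one was 0.27 (adjusted p = 0.242). It was lower in WSD+T than in WSD (log2 fold change -0.82, SE 0.16, adjusted p = 0.0368), a call missed without control replicate 1, control replicate 2, control replicate 3, WSD replicate 1, WSD+T replicate 1, WSD+T replicate 2 and WSD+T replicate 3 (adjusted p = 0.0567, 0.0503, 0.0542, 0.0965, 0.161, 0.158 and 0.111, respectively), over a range of 0.0224 to 0.161.

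The third POR probe set had -0.64 in WSD (adjusted p = 0.0236), against -0.10 on the representative one (adjusted p = 0.769). It missed the threshold without control replicate 1, control replicate 2, control replicate 3 and WSD replicate 1 (adjusted p = 0.0548, 0.0699, 0.0634 and 0.0609, respectively), over 0.00911 to 0.103. For CYB5B, a haem protein that donates electrons, the fourth probe set had -0.59 (adjusted p = 0.0230), against -0.22 on the representative one (adjusted p = 0.257). It missed the threshold without control replicate 2 and control replicate 3 (adjusted p = 0.0700 and 0.0669, respectively), over 0.0121 to 0.0933.

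Of 11 listed genes that sense foreign compounds, 9 were on the array and 6 tested. On representative probe sets 1 rose in WSD, TIPARP, a target of the aryl hydrocarbon receptor, and none passed in the other comparisons. That 1 of 6 is likewise near the share of 14.5% over all tested probe sets. TIPARP gave 604, 345 and 502 on the control arrays, 1049, 1054 and 687 on the WSD arrays and 490.2, 441 and 507 on the WSD+T arrays, with WSD above all other arrays (log2 fold change 0.93, SE 0.24, adjusted p = 0.0347). It missed the threshold without control replicate 2, control replicate 3, WSD replicate 1, WSD replicate 2, WSD+T replicate 1, WSD+T replicate 2 and WSD+T replicate 3 (adjusted p = 0.0958, 0.0771, 0.0970, 0.0763, 0.0639, 0.0568 and 0.0626, respectively), over a range of 0.0117 to 0.111. NFE2L2, a regulator of antioxidant genes, passed on probe sets 2 and 3 (0.69 and 0.75, adjusted p = 0.0225 and 0.0144) but had -0.13 on the representative one (adjusted p = 0.581). The second missed the threshold without control replicate 1, control replicate 2 and control replicate 3 (adjusted p = 0.0505, 0.0695 and 0.0616, respectively), over a range of 0.0140 to 0.0957.

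Aldehyde dehydrogenases outside retinoid metabolism had 9 of 13 genes tested. ALDH6A1 and ALDH1B1 fell in WSD, none rose, and none passed in the comparisons of WSD+T. These are 3 of 17 probe sets, a share near the 14.5% called over all tested probe sets, of which 9.68% were lower. ALDH6A1, a mitochondrial enzyme of valine breakdown, gave 302, 257 and 310.2 on the control arrays, 142, 97.8 and 169 on the WSD arrays and 191, 185 and 161 on the WSD+T arrays on its representative probe set, MmugDNA.4104.1.S1_at. WSD and WSD+T were both below control, with overlap between them. It fell in WSD (log2 fold change -1.03, SE 0.19, adjusted p = 0.0124) and was -0.65 in WSD+T against control (adjusted p = 0.130). The call in WSD held in each fit that left out an array, with a range over all alternatives of 0.00646 to 0.0611. Its other tested probe sets had -0.34 and -0.31 in WSD (adjusted p = 0.298 and 0.143) and -0.86 and -0.34 in WSD+T against control. On both of these the WSD+T arrays were below all control arrays.

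ALDH1B1, a mitochondrial enzyme that oxidises acetaldehyde and retinal, gave 825, 975 and 870.2 on the control arrays, 546, 606 and 645 on the WSD arrays and 779, 705 and 712 on the WSD+T arrays on its first probe set and 82.5, 112 and 77.5 on the control arrays, 39.7, 46.5 and 53.3 on the WSD arrays and 58.9, 62.5 and 45.7 on the WSD+T arrays on its second. WSD and WSD+T were below control without overlap on both. It fell in WSD (log2 fold change -0.56, SE 0.13, adjusted p = 0.0266 on the first, -0.76, adjusted p = 0.0235 on the second), with -0.27 and -0.57 in WSD+T vs control (adjusted p = 0.300 and 0.136). The first missed the threshold without control replicate 2, control replicate 3, WSD replicate 1, WSD+T replicate 1 and WSD+T replicate 3 (adjusted p = 0.0855, 0.0617, 0.0752, 0.0538 and 0.0560, respectively), over a range of 0.0148 to 0.127. The second missed it without control replicate 2 and WSD replicate 1 (adjusted p = 0.0719 and 0.0685, respectively), over a range of 0.0174 to 0.0969.

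ALDH18A1, which starts proline synthesis, had 2588, 2979 and 3106 in control and lower values on every WSD array (2334, 1192 and 2135) and WSD+T array (1961, 2292 and 2004), with changes of -0.66 and -0.47 (adjusted p = 0.102 and 0.330). ALDH1L1, a folate enzyme, gave 235, 559.8 and 286 on the control arrays, 421, 37.3 and 270.1 on the WSD arrays and 76.8, 134 and 95.4 on the WSD+T arrays. WSD+T was below control without overlap and WSD spanned both (-1.60 in WSD+T vs control, adjusted p = 0.257). The second ALDH9A1 probe set showed the same order, with 534, 756 and 580.2 in WSD+T against 1139.9, 1401 and 1127 in control (-0.96, adjusted p = 0.139), while the first was -0.05. ALDH9A1 acts in carnitine synthesis, and its probe sets thus differed.

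The remaining members of these families did not pass in any comparison. ALDH2, the mitochondrial acetaldehyde dehydrogenase, gave 2439, 2576 and 3200.1 on the control arrays, 2936, 3282 and 2033 on the WSD arrays and 2763, 2996 and 2542 on the WSD+T arrays, and its 95% intervals against control were -0.47 to 0.45 in WSD and -0.44 to 0.48 in WSD+T. The aldo-keto reductase AKR1A1 gave 2027, 1831 and 2215 on the control arrays, 2337, 2824 and 1738 on the WSD arrays and 2100.4, 2066 and 2074 on the WSD+T arrays, with intervals of -0.26 to 0.58 and -0.38 to 0.46. AKR7A2, another aldehyde reductase, had -0.42 to 0.35 and -0.42 to 0.34. ALDH7A1, of lysine breakdown, was -0.20 in WSD and -0.31 in WSD+T (adjusted p = 0.394 and 0.307). ALDH3A2, which oxidises fatty aldehydes, had changes of 0.12, 0.54 and 0.58 in WSD on 3 probe sets, none past the threshold. ALDH3B1, another aldehyde dehydrogenase, gave 35.9, 18.6 and 5.15 on the control arrays, 54.5, 143 and 1.45 on the WSD arrays and 61.8, 44.6 and 44.9 on the WSD+T arrays, with WSD+T above control and the WSD arrays in the order of the myeloid marker sum (0.97 in WSD+T vs control, adjusted p = 0.483).

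The 35 genes with no tested probe set included the corticosteroid enzymes CYP11B1 and CYP11B2, HSD17B2, HSD17B13, AKR1C2, AKR1D1, CYP1A1, CYP26A1, CYP26B1, CYP27B1, CYP46A1, CYP7B1, UGT1A1 and SULT2A1. HSD17B2, which inactivates oestradiol and testosterone, was at or below 2.23 on all arrays, and the retinoic acid hydroxylase CYP26B1 at or below 6.99. Whether a low signal is background is not settled by the signal alone, since MAS5 detection calls were not used here. CYP11A1, HSD3B1, HSD17B12, HSD11B2, AKR1C1, AKR1C3, SRD5A1, ALDH1A1, CYP27A1 and SULT1E1 were not analysed here. In the annotation used, no probe set had any of these names as its single symbol.

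Groups also separated for some of these low genes, and those given here were picked after their values were seen. Others separated the other way, such as ALDH5A1 and CYP2C18, lower in WSD+T than in control without overlap. Over all tested probe sets 36.8% had no overlap in WSD+T vs control, 28.5% in WSD+T vs WSD and 30.8% in WSD vs control. That share was not computed for probe sets below the filter. SULT2A1, which sulfates dehydroepiandrosterone and other steroids, gave 6.93, 11.7 and 12.6 on the control arrays, 14.1, 7.21 and 7.75 on the WSD arrays and 34.1, 39.1 and 35.1 on the WSD+T arrays on its brightest probe set. Every WSD+T array was above every other array. Tested without the filter, it was higher in WSD+T than in control (log2 fold change 0.99, SE 0.14, adjusted p = 0.0271) and than in WSD (log2 fold change 1.03, SE 0.14, adjusted p = 0.0246). Its next probe set gave 3.56, 11.1 and 14.8 on the control arrays, 21.3, 2.04 and 7.64 on the WSD arrays and 16.3, 46.1 and 29.3 on the WSD+T arrays, above control but overlapping WSD, and was not called. The third SULT2A1 probe set changed little in WSD+T, by 0.18 against control and 0.13 against WSD (adjusted p = 0.686 and 0.831 without the filter). CYP26A1, which breaks down retinoic acid, gave 5.10, 0.860 and 0.970 on the control arrays, 1.47, 1.55 and 1.25 on the WSD arrays and 16.2, 16.1 and 16.9 on the WSD+T arrays. It too was called higher without the filter, against control (log2 fold change 0.83, SE 0.11, adjusted p = 0.0224) and against WSD (log2 fold change 0.89, SE 0.11, adjusted p = 0.0207), though all its values stayed under the filter and its other probe set was at or below 1.86. CYP1A1, the aryl hydrocarbon receptor target, had 10.2, 37.4 and 6.90 in WSD against 3.23, 0.936 and 6.08 in control, without overlap (adjusted p = 0.198 without the filter). The ceramide enzyme UGT8 had 23.7, 17.1 and 25.0 in WSD+T against 3.21, 3.32 and 10.2 in control (adjusted p = 0.0922 without the filter). The other UGT8 probe set did not show this, with a log2 fold change of 0.05 (adjusted p = 0.916 without the filter).

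**Figure D4:**
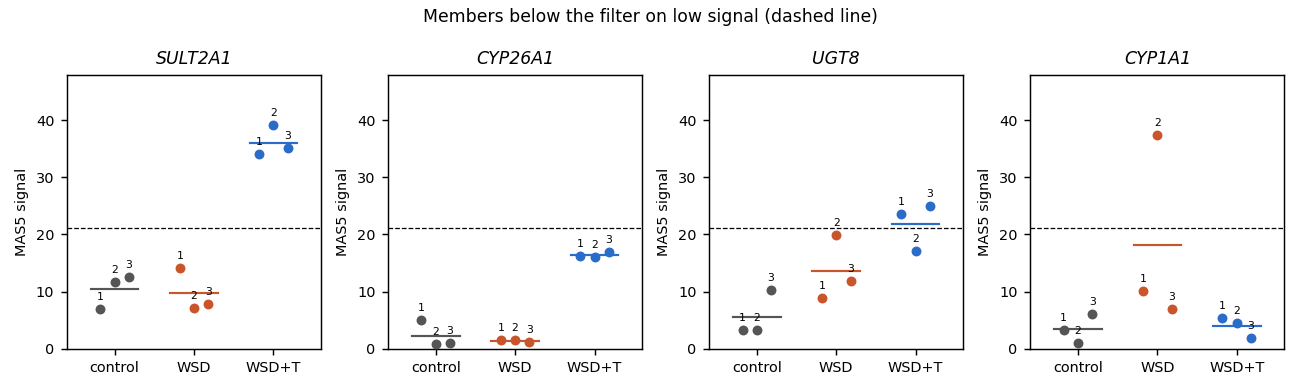
MAS5 signals (vertical axes, linear, from 0) of 4 members below the filter on low signal, per array and group, on the probe set with the highest mean of each gene; the dashed line is the filter's signal of 21.2, and lines are group means of n = 3. SULT2A1 and CYP26A1 are highest on the 3 WSD+T arrays, from 34.1 to 39.1 and from 16.1 to 16.9.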

How the data were processed

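Each of 9 RNA samples was hybridised to 1 single-colour Affymetrix array after amplification with a NuGEN protocol per the labels' protocols. The authors deposited 1 linear signal intensity for each probe set; the submitters' processing notes name MAS5 without a version. The mean without the outer 2% of probe sets was 200.01 on every array, and median signals ran from 15.90 to 23.75. A genome build is not given in the sources used here. Precision is limited by the number of arrays, and labels call the replicates biological.

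The 99 control probe sets were left out. Symbols came from the array's annotation, and a RefSeq table gave the same symbol for the Entrez IDs of all 121 member probe sets. A further 3 probe sets had several symbols, at least one from these families, and were not members. Values were log2(signal + 16), and 26383 probe sets with a mean at or above the median were tested with limma 3.58.1 in R 4.3.3, with a mean per group over all 9 arrays and no further normalization. Each comparison was adjusted by Benjamini-Hochberg with a threshold of 0.05. One spread per probe set was shared by the 3 groups. The brightest tested probe set by mean stands for its gene, and probe sets are numbered in that order. Alternatives kept the tested probe sets, except where the filter itself was changed. They were the pseudocount, the filter, 3 normalizations, the arrays in the fit, the replicate block, array weights, each array left out, and WSD+T replicates 1 and 3 averaged.

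The named genes were all members past the threshold, those with a high control signal and a fixed set whatever their p. CYP26A1, SULT2A1, UGT8, CYP1A1 and other members with separated groups were named after their values were seen. The members and lists were chosen with earlier results of these data known. The pipeline was tested on simulated data. Plots used matplotlib 3.10.9 under Python 3.11.15. No sequences were used here.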

Additional observations from a re-analysis of the deposited data

How the results depend on the processing

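Each call of a member probe set kept its direction under all alternatives that gave it a value, so what moved was the side of the threshold. In WSD vs control, 14 member probe sets were called. This count was 7 with the stricter filter, which tests 33 of them, 4 with only the 6 arrays compared and 7 with array weights per group, and it ran from 7 to 20 when 1 array was left out. In WSD+T vs control, 2 were called, against 1 with a pseudocount of 1, 1 with the stricter filter, 10 with only the arrays compared and 11 with array weights, and 0 with WSD+T replicates 1 and 3 averaged, which leaves fewer samples (11 at an unadjusted p under 0.05 in limma). Leaving out 1 array gave 0 to 8. In WSD+T vs WSD, 4 were called, against 2 with a pseudocount of 1, 2 under quantile normalization, 2 under median centring, 1 under cyclic loess and 1 with array weights. The count was 0 with only the arrays compared and 0 with WSD+T replicates 1 and 3 averaged (13 and 11 at an unadjusted p under 0.05 in limma), and 0 to 7 when 1 array was left out. The share of all tested probe sets called under each alternative is not given beside these counts. They therefore do not show whether members moved more than other probe sets. The cause of these differences was not tested, apart from the fewer probe sets or samples named.

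Whether the replicate numbers pair the samples is not known. Residuals of same-numbered arrays of different groups correlated from -0.30 to 0.19, with 4 of 9 pairs over 0.1. Those of differently numbered arrays of different groups ran from -0.45 to 0.43. Residuals about the means of so few arrays cannot show whether same-numbered arrays are paired. With the replicate number as a block, limma called 9 in WSD vs control, 0 in WSD+T vs control and 0 in WSD+T vs WSD (13 and 11 at an unadjusted p under 0.05 in the comparisons of WSD+T). Low signal limits the rest, since 62 of 121 member probe sets were below the filter.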

Other observations

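A probe set that the annotation gives to both CYP3A5 and CYP3A4 was no member, because it has several symbols. It gave 29.0, 22.05 and 17.3 on the control arrays, 115, 154 and 61.3 on the WSD arrays and 134, 73.6 and 95.6 on the WSD+T arrays, with every WSD and WSD+T array above every control array. Its log2 fold change was 1.64 in WSD vs control (SE 0.30, adjusted p = 0.0119), 1.57 in WSD+T vs control (adjusted p = 0.0421) and -0.07 in WSD+T vs WSD (adjusted p = 0.931). It comes from the same arrays as the CYP3A5 probe sets and is not independent of them.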
